A study of Mus musculus with 7 samples.

Results

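Apelin, vascular endothelial growth factor (VEGF) and angiopoietin genes were described in 7 mouse melanomas. The 10 genes, of 28233 in the expression table, are 5 ligands (Apln, Vegfa, Vegfc, Pgf and Angpt2), 4 receptors (Aplnr, Kdr, Flt1 and Tek) and Pecam1, a surface protein of endothelial cells. They were chosen by symbol with the difference between the groups of tumours already known, so their values in that comparison are given as a description and without a test. The tumours grew under the skin of C57BL/6 mice from B16mhgp100 (also spelled B16mghp100 in the labels), a line of the B16 melanoma, with Cr1l over-expressed in 4 (Cr1l 1 to Cr1l 4) and with vector in 3 (Vec 5, Vec 6 and Vec 7). Cr1l encodes Crry, a membrane regulator of complement. Mice of both groups were given anti-PD1, which blocks a receptor that holds back T cells, from day 10 on, as 4 doses of 200 µg with 2 in a week, and tumours were harvested 1 day after the final dose. The comparison is of Cr1l with vector tumours under that antibody, since no tumour without it was measured. Neither the age of the mice nor whether each line was a single clone is given in the sources used here.

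VEGF ligands are secreted by tumour and stromal cells and bind receptor tyrosine kinases on endothelial cells, where the receptor encoded by Kdr carries most of the growth signal and the one encoded by Flt1 binds ligand tightly and can act as a decoy. Apelin is a peptide whose receptor, encoded by Aplnr, is a G protein-coupled receptor of sprouting vessels. Angiopoietin-2 binds the receptor TEK (TIE2) and can weaken the signal of angiopoietin-1, which keeps vessels quiescent. Vegfa and Apln are among the genes known to be induced in low oxygen through hypoxia-inducible factor (HIF).

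The DNA just upstream of 4 of these genes is shown because Apln and Vegfa are the ligands that separated the groups and are known as HIF targets, and Kdr and Flt1 are the VEGF receptors whose ratio separated them. Each line gives the 250 bases before the RefSeq start in GRCm38.p6, read 5′ to 3′ on the strand of the gene, which is the minus strand in all 4. Capitals mark ACGTG or GCGTG, the core letters of hypoxia response elements, searched on both strands, so that a match on the opposite strand reads CACGT or CACGC.
Apln, chrX:48034854-48035103: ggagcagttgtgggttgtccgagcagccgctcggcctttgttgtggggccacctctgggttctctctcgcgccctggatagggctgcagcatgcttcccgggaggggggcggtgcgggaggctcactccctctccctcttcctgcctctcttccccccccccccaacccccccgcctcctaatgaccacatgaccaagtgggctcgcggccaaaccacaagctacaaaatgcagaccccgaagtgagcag
Vegfa, chr17:46032378-46032627: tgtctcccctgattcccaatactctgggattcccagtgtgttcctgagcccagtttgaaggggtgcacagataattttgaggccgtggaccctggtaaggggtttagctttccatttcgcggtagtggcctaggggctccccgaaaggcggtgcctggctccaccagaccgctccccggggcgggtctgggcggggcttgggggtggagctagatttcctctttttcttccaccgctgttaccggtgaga
Kdr, chr5:75978456-75978705: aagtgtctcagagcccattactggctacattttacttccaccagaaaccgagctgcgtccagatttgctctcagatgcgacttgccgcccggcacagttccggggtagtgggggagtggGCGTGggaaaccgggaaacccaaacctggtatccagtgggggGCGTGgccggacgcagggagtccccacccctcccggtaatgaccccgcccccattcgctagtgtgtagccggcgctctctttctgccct
Flt1, chr5:147726012-147726261: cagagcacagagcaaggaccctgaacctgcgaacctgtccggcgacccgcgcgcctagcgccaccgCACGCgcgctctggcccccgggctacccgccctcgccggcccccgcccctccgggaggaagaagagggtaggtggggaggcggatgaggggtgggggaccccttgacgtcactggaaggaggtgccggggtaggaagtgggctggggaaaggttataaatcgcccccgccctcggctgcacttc
The Kdr window held GCGTG on its own strand at 131 and 89 bases before the start, and the Flt1 window held it on the opposite strand at 184 bases before the start. Neither set of letters was in the Apln or the Vegfa window, which says nothing of sites elsewhere. A second RefSeq window of Vegfa, chr17:46025164-46025413, held GCGTG on its own strand and ACGTG on the opposite strand, 218 and 211 bases before its start. On the minus strand this window lies downstream of the first, so its matches are not upstream of the first start. Read in frame, the bases around both matches spell part of the VEGF-A protein, so these matches lie in coding sequence. Of the 9 windows found for the 10 genes, 4 held either motif. They include a Pgf window, not shown, with GCGTG on the opposite strand 124 bases before its start. Of the 32851 RefSeq promoter windows of this length, 38.6% held either motif, so a match is common. RefSeq entries were found for 7 of the 10 genes, and Angpt2, Aplnr and Pecam1 were without one.

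Levels are in TPM, a relative transcript abundance scaled to length that keeps no depth, so the counting error of each value is unknown. The labels number the tumours as separate samples. Cr1l itself lay between 76.4 and 83.6 TPM in the Cr1l tumours and between 46.3 and 54.9 TPM in the Vec tumours, so every tumour sat on the side of its label, whichever copy the reads came from. All 18 pan-endothelial markers were found in every tumour, with a summed level of 287 to 870 TPM in the Cr1l group and 263 to 488 TPM in the Vec group. Cr1l 3 held the highest sum of these markers and Vec 7 the lowest. The markers did not share this spread: over the 7 tumours Eng varied 1.62-fold and Vwf 1.98-fold, but Cdh5 17.1-fold. In Vec 7, Eng at 137 TPM and Vwf at 48.9 TPM held most of the sum of 263 TPM. Macrophage marker sums were 595 to 5867 TPM in the Cr1l tumours and 504 to 1586 TPM in the Vec tumours, with no marker at 0. Fibroblast marker sums were 747 to 6063 and 151 to 1272 TPM, also with none at 0. In both lists Cr1l 3 and Cr1l 4 lay far above the other tumours. Erythroid marker sums were 106 to 389 TPM in the Cr1l tumours against 416 to 41285 TPM in the Vec tumours, the highest being Vec 6. Skeletal muscle marker sums were 4.69 to 261 TPM with Cr1l and 62.1 to 1512 TPM with vector, and keratinocyte marker sums 1.00 to 46.5 and 8.24 to 886 TPM, Vec 6 being the highest for both. Tnnt3 was listed at 0 in Cr1l 1, and Krt5 and Krt1 in Cr1l 1, Cr1l 2 and Cr1l 4, with Krt14 also at 0 in Cr1l 1 and Cr1l 4. Melanocyte marker sums were lowest in Cr1l 3 and Cr1l 4, at 8873 and 10162 TPM, beside 12899 to 20010 TPM in the other 5 tumours. The part of these contents in the values of the 10 genes was not tested. The titles of Vec 6 and Vec 7 carry an extra number of unknown meaning. In such bulk tumours fewer cells of a type and less RNA per cell cannot be told apart.

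Of the 10 genes, 8 had a positive difference (Cr1l minus Vec) and 2 a negative one, Vegfc and Angpt2. Apln, Vegfa, Aplnr and Kdr, 4 of the 10, were higher in every Cr1l tumour than in every Vec tumour, and 0 were lower without overlap. Among the 14954 genes tested, 9.29% were higher without overlap and 6.67% lower. With limma and Benjamini-Hochberg adjustment over all tested genes, 0 of the 10 were called, where 0.0134% of all genes were. In the authors' deposited table Apln, Vegfa and Kdr were called higher and 0 of the 10 lower, among 9 with an adjusted p-value, Aplnr having none. Over all genes in it, 4.74% were called higher and 2.27% lower. Since the genes were selected on this contrast, nothing is read from these counts. The median difference of the 10 on the log2(TPM + 1) scale was 1.18, beside 0.05 for all tested genes.

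**Figure D1:**
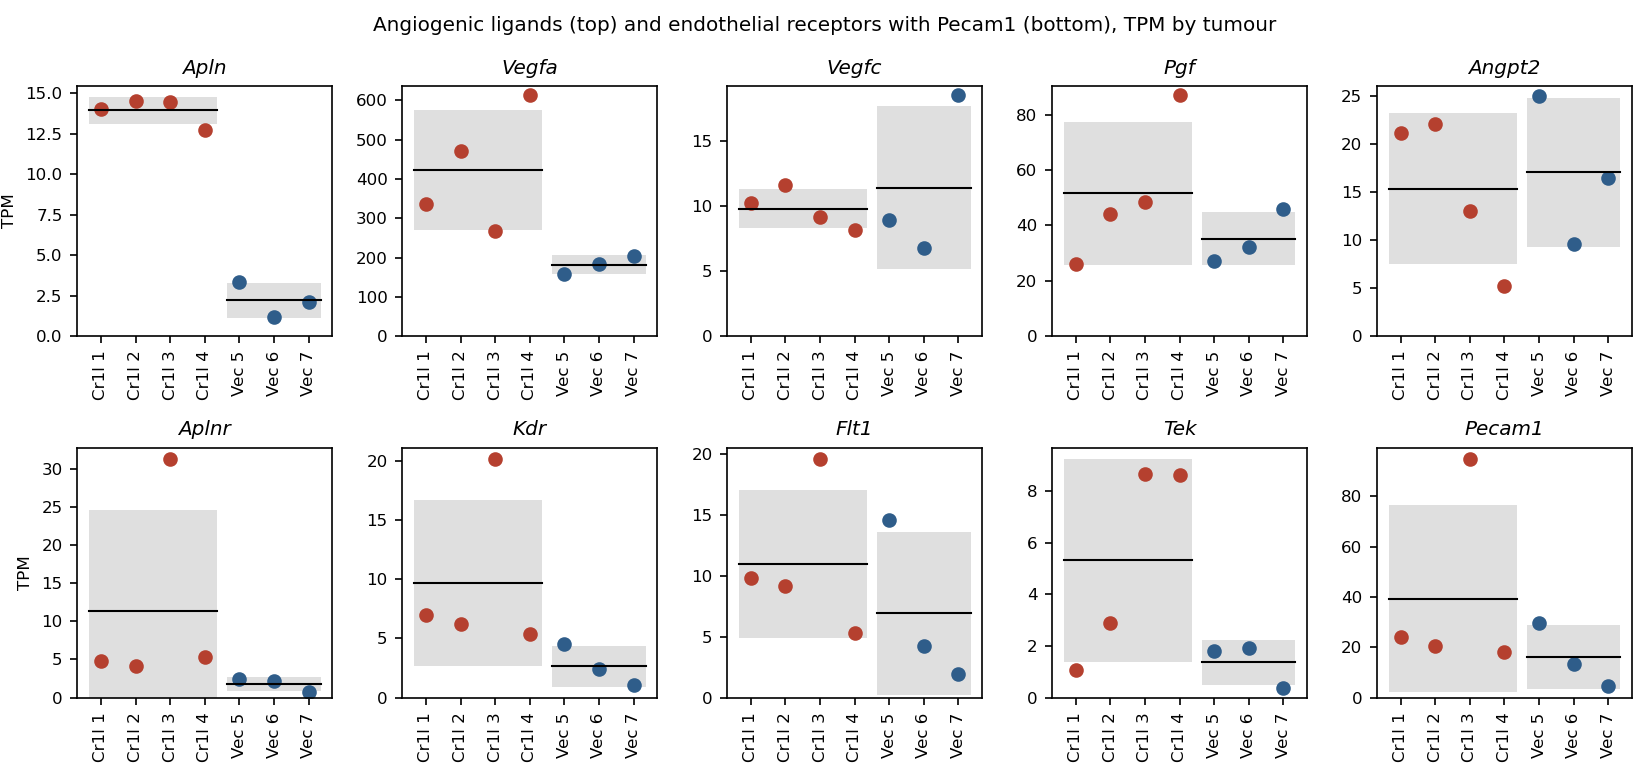
TPM (y axis, linear, from 0) of each of the 10 genes in each tumour (x axis), ligands above and receptors with Pecam1 below; points are tumours, lines the group means and grey bands ± 1 SD (n = 4 Cr1l, n = 3 Vec). The 4 Apln points of the Cr1l group lie between 12.7 and 14.5 TPM, and Cr1l 3 stands above the other tumours for Aplnr, Kdr and Pecam1.

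Apln, the apelin precursor, showed the widest separation of the groups. Its level was 14.0, 14.5, 14.4 and 12.7 TPM in Cr1l 1 to Cr1l 4, against 3.33, 1.19 and 2.12 TPM in Vec 5 to Vec 7. The Cr1l tumours were nearly level, with a coefficient of variation of 5.95%, and the lowest of them lay far above the highest Vec tumour. Group means were 13.9 ± 0.83 TPM (SD, n = 4) in Cr1l and 2.21 ± 1.07 TPM (SD, n = 3) in Vec, a 6.29-fold ratio. The difference on the log2(TPM + 1) scale was 2.27 with an SE of 0.25. Vec 5, the only Vec tumour with an erythroid sum near those of the Cr1l group, also had the highest Apln level among the vector tumours, and against Vec 5 alone the log2 difference was 1.78. Apln in Cr1l 4, the Cr1l tumour with the lowest endothelial sum, was close to that in Cr1l 3, which had the highest.

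Vegfa, the main growth factor for endothelial cells, was the most abundant of the 10 transcripts. It measured 337, 471, 268 and 614 TPM in Cr1l 1 to Cr1l 4, against 158, 183 and 204 TPM in Vec 5 to Vec 7. The groups did not overlap, the Vec tumours were close together, and the Cr1l tumours spread 2.29-fold from Cr1l 3 to Cr1l 4. Mean levels of Vegfa were 422 ± 153 TPM (SD, n = 4) with Cr1l and 182 ± 23.4 TPM (SD, n = 3) with vector, a 2.32-fold ratio. On the log2(TPM + 1) scale the difference was 1.15 with an SE of 0.28. Gene-level values do not separate the splice forms of Vegfa, which differ in how far they diffuse from the cell.

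The other ligands overlapped between the groups. Pgf encodes placental growth factor, a ligand of FLT1 alone among the VEGF receptors, and was the next most abundant of the 10 genes. It measured 26.2, 44.3, 48.5 and 87.4 TPM in the Cr1l tumours, against 27.3, 32.4 and 45.9 TPM in the Vec tumours, in tumour order. Cr1l 4 was the highest and Cr1l 1 the lowest of all 7. The log2(TPM + 1) difference was 0.45 with an SE of 0.38. Vegfc, the ligand best known for lymphatic growth, measured 10.3, 11.6, 9.12 and 8.12 TPM in the Cr1l tumours, against 8.90, 6.78 and 18.6 TPM in the Vec tumours. Vec 7 alone stood above the rest, and the difference of -0.10 (SE 0.32) became 0.29 without it. Angpt2, made by activated endothelium, measured 21.1, 22.1, 13.0 and 5.26 TPM in the Cr1l tumours, against 25.1, 9.62 and 16.5 TPM in the Vec tumours. Its lowest value was in Cr1l 4, the tumour with the highest Vegfa and Pgf, and its log2 difference was -0.22 with an SE of 0.50. It became 0.19 without Cr1l 4 and 0.09 without Vec 5. The ratio of Angpt2 to Angpt1, the ligand that activates TEK, was 14.0, 18.0, 5.37 and 2.63 in Cr1l 1 to Cr1l 4, against 8.27, 5.56 and 6.38 in Vec 5 to Vec 7, so both the highest and the lowest ratios were in the Cr1l group.

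Among the receptors, Aplnr and Kdr were higher in every Cr1l tumour. Aplnr, which binds apelin, measured 4.81, 4.16, 31.3 and 5.32 TPM in Cr1l 1 to Cr1l 4, against 2.45, 2.13 and 0.77 TPM in Vec 5 to Vec 7. Cr1l 3 was far above the other 6 tumours, which sets the group SD (11.4 ± 13.3 TPM, n = 4, against 1.78 ± 0.892 TPM, n = 3). The log2(TPM + 1) difference was 1.73 with an SE of 0.65, and 1.10 without Cr1l 3. Kdr, which encodes VEGF receptor 2, measured 7.00, 6.20, 20.2 and 5.35 TPM in the Cr1l tumours, against 4.51, 2.38 and 1.07 TPM in the Vec tumours. The margin between Cr1l 4 and Vec 5 was small, and Cr1l 3 was again the highest. Mean Kdr was 9.69 ± 7.05 TPM (SD, n = 4) with Cr1l and 2.65 ± 1.74 TPM (SD, n = 3) with vector, with a log2 difference of 1.47 (SE 0.49) that was 0.77 against Vec 5 alone.

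Flt1, Tek and Pecam1 overlapped. Flt1, which encodes VEGF receptor 1 and its soluble form without telling them apart here, measured 9.82, 9.17, 19.5 and 5.28 TPM in the Cr1l tumours, against 14.5, 4.24 and 1.95 TPM in the Vec tumours. Vec 5 exceeded 3 of the 4 Cr1l tumours, and the log2(TPM + 1) difference of 0.81 (SE 0.59) was -0.51 when Vec 5 was the only Vec tumour. Pecam1, which is also found on platelets and leukocytes, measured 24.1, 20.7, 94.9 and 18.0 TPM in the Cr1l tumours, against 29.8, 13.4 and 4.70 TPM in the Vec tumours. Vec 5 again exceeded all Cr1l tumours but Cr1l 3, and the log2 difference of 1.21 (SE 0.71) was 0.03 against Vec 5 alone. Tek, the angiopoietin receptor, measured 1.06, 2.88, 8.68 and 8.64 TPM in the Cr1l tumours, against 1.79, 1.93 and 0.37 TPM in the Vec tumours, with a log2 difference of 1.22 (SE 0.60). Its high tumours were Cr1l 3 and Cr1l 4, which were also the highest for the macrophage and fibroblast markers, whereas the endothelial markers were high in Cr1l 3 and low in Cr1l 4. Some macrophages are known to express Tek, and the part of these cells in its level was not tested.

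**Figure D2:**
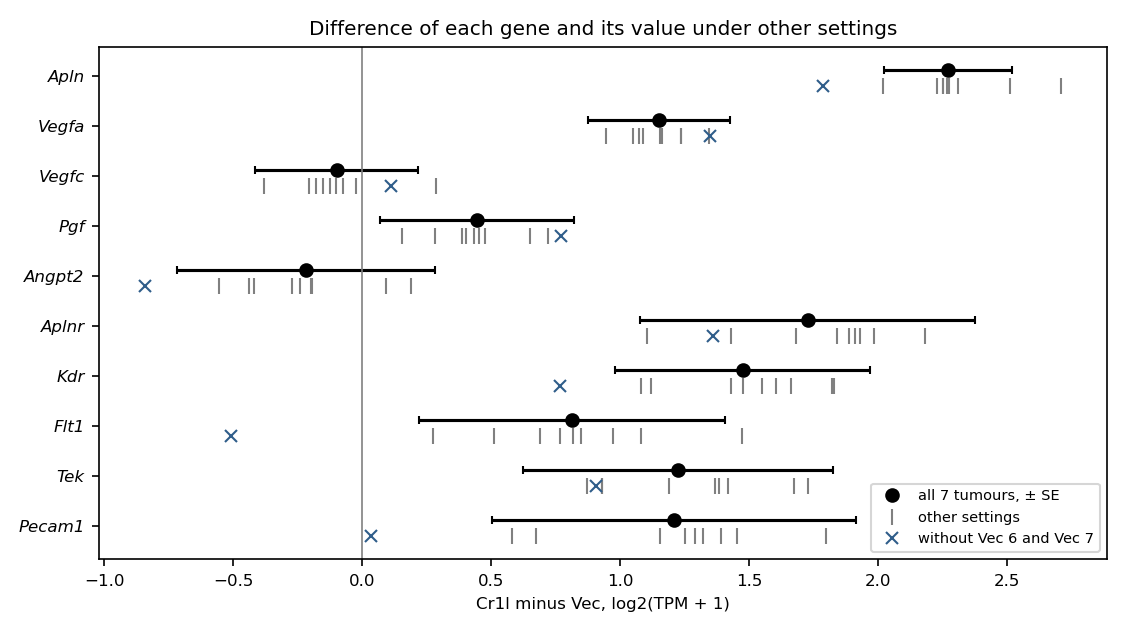
Difference in log2(TPM + 1), Cr1l minus Vec, of the 10 genes (black points, bars ± SE, 7 tumours); grey ticks are other settings and leave-one-out values, and blue crosses the values without Vec 6 and Vec 7. Apln lies between 1.78 and 2.71 throughout, while Flt1 runs from -0.51 to 1.47 and Pecam1 from 0.03 to 1.80.

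The 4 receptors and Pecam1 were then set against the mean log2(TPM + 1) of the 18 pan-endothelial markers in each tumour. This mean is a rough measure of endothelial content, since Eng and Vwf varied little. That mean was 3.47, 3.31, 4.93 and 3.13 in Cr1l 1 to Cr1l 4, against 3.67, 3.15 and 2.40 in Vec 5 to Vec 7, so the groups overlapped with a mean difference of 0.64. Pecam1 followed it closely, with a Pearson r of 0.982 and a Spearman rho of 0.964 over the 7 tumours, and an r of 0.984 without Cr1l 3. These correlations describe values from the same 7 libraries.

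Relative to that mean, Kdr was nearly constant within each group on the log2(TPM + 1) scale, where the added 1 damps changes at such low levels. The difference of its log2(TPM + 1) from the marker mean was -0.47, -0.46, -0.53 and -0.46 in Cr1l 1 to Cr1l 4, against -1.20, -1.39 and -1.35 in Vec 5 to Vec 7. The groups did not overlap, and Cr1l 3, which had stood apart by level, no longer did. The range over the 7 tumours narrowed from 3.36 to 0.93, and the group difference was 0.83, from -0.48 ± 0.03 (SD, n = 4) to -1.31 ± 0.10 (SD, n = 3). Aplnr relative to the same mean was -0.93, -0.94, 0.08 and -0.47 in the Cr1l tumours, against -1.88, -1.50 and -1.57 in the Vec tumours, a difference of 1.09 without overlap. The remaining 8 genes overlapped on this relative scale, with positive group differences for Flt1 (0.17), Vegfa (0.51), Pecam1 (0.57), Tek (0.58) and Apln (1.63) and negative ones for Pgf (-0.19), Vegfc (-0.74) and Angpt2 (-0.86). That of Tek was 0.09 without Cr1l 4. Subtracting the marker mean adds its own spread to genes that do not follow it. The range over the 7 tumours widened for Vegfa (1.96 to 3.00), Vegfc (1.33 to 3.49), Pgf (1.70 to 2.64) and Angpt2 (2.06 to 2.86). The overlap of Vegfa on this scale therefore says nothing of its separation by level. Against Vec 5 alone the relative difference was 0.72 for Kdr, -0.55 for Flt1 and -0.01 for Pecam1. Of all 14954 genes, 0.495% were higher in every Cr1l tumour on this scale. Subtracting a mean that overlapped between the groups can itself make genes that do not follow it overlap, which lowers that share. The choice of genes also rested on the same contrast, so nothing is read from that share either.

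The result for Kdr depended on the gene it was set against. The ratio of Kdr to Flt1 in TPM was 0.713, 0.676, 1.03 and 1.01 in the Cr1l tumours, against 0.311, 0.561 and 0.549 in the Vec tumours, without overlap. Both receptors bind VEGF-A, and Flt1 exceeded Kdr in all 3 Vec tumours and in 2 of the 4 Cr1l tumours. The ratio of Kdr to Cdh5, the endothelial cadherin, was 0.373, 0.410, 0.370 and 0.666 against 0.166, 0.227 and 0.334, also without overlap, though Vec 7 came close. The ratio of Kdr to Pecam1 was 0.291, 0.300, 0.213 and 0.298 against 0.151, 0.178 and 0.228, and here Cr1l 3 fell below Vec 7. Among the 18 markers themselves, Sox18 and Fli1 were higher and Robo4 lower in every Cr1l tumour relative to their own mean, so the markers did not all move as one. Of all tested genes 0.495% were higher on this scale, and the share that were lower is not given. Values set against their own mean fall on both sides of it, so nothing more is read from these markers. Cdh5, Sox18, Fli1, Robo4, Eng and Vwf were picked out after their values had been seen.

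**Figure D3:**
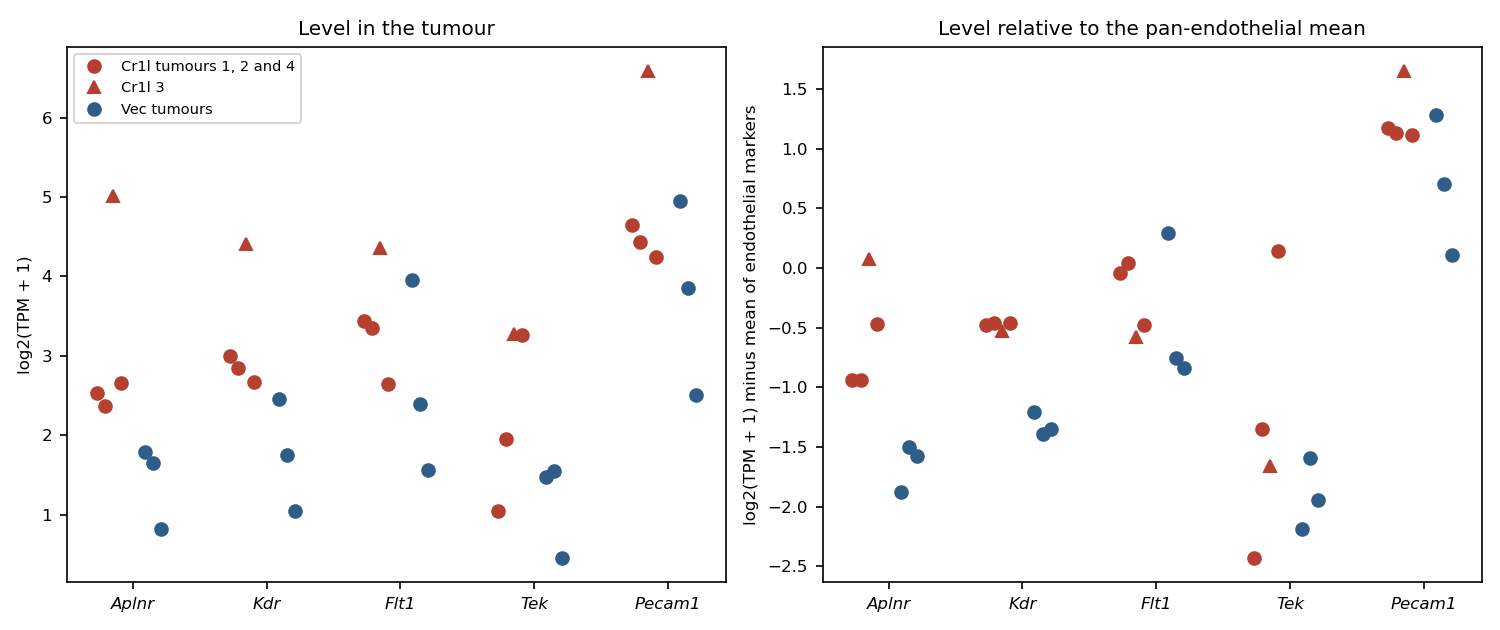
Left, log2(TPM + 1) of the 4 receptors and Pecam1; right, the same value minus the mean of the 18 pan-endothelial markers in that tumour; each point is a tumour (red Cr1l, blue Vec, triangle Cr1l 3). On the right the 4 Cr1l values of Kdr lie between -0.53 and -0.46 and the 3 Vec values between -1.39 and -1.20.

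Other genes of these pathways were taken from 8 lists of 80 genes, of which 79 were in the table (Apela was not) and 76 were tested. With limma, 0 of the 76 passed an adjusted p of 0.05, the smallest being 0.226 for Esm1. At an unadjusted p under 0.05 limma found 12 higher and 2 lower. Among all 14954 tested genes 1419 were higher and 908 lower at that p, 15.6% in either direction. The authors' deposited table had 6 of 79 called higher (Vegfd, Nrp2, Esm1, Pdgfc, Cxcl12 and Vash1) and 0 lower. Of all genes in it, 4.74% were called higher and 2.27% lower. Differences were positive for 52 and negative for 24, where 55.4% of all tested genes were positive. The median was 0.32 beside 0.05 for all genes on the log2(TPM + 1) scale. Without overlap, 3 genes were higher and 2 lower, where 9.29% and 6.67% of all tested genes were. The lists were chosen with earlier results of these data known, so nothing is read from these counts.

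Among the ligands, Vegfd, another lymphatic growth factor, measured 1.88, 2.94, 17.2 and 22.9 TPM in Cr1l 1 to Cr1l 4, against 2.42, 1.79 and 1.03 TPM in Vec 5 to Vec 7. Only Cr1l 3 and Cr1l 4 were far above the Vec tumours, and its log2 difference was 1.64 (limma adjusted p = 0.341). Vegfb, a ligand of FLT1, had a log2 difference of -0.13. The coreceptors Nrp1 and Nrp2, which hold VEGF ligands for the signalling receptors, had log2 differences of 1.13 and 1.50 (limma adjusted p = 0.325 and 0.298), and both were highest in Cr1l 3 and Cr1l 4. Flt4, the receptor of Vegfc and Vegfd, had a difference of -0.45. The lymphatic markers went different ways: their summed level was 46.0 to 156 TPM in the Cr1l tumours and 48.5 to 89.9 TPM in the Vec tumours, while Ccl21a and Mmrn1 were called lower in the authors' deposited table. Ccl21a, a chemokine of lymphatic endothelium, was listed at 0 in Cr1l 1 and Cr1l 2 and measured 0.09 and 1.27 TPM in Cr1l 3 and Cr1l 4, against 10.8, 28.1 and 3.12 TPM in Vec 5 to Vec 7. It was thus lower in every Cr1l tumour, with a log2 difference of -3.16 that did not pass limma (adjusted p = 0.132). Mmrn1 was at most 0.22 TPM in the Cr1l tumours, with Cr1l 3 listed at 0, and 0.15 to 1.62 TPM in the Vec tumours, with overlap and too low to be tested with limma here. Prox1, Lyve1 and Pdpn overlapped between the groups. In the angiopoietin list, Angpt1, Tie1 (a partner receptor of TEK) and Ptprb (a phosphatase that restrains TEK) had differences of -0.31, 0.77 and 0.52, and those of Tie1 and Ptprb turned negative against Vec 5 alone.

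Of 11 tested tip cell and Notch genes, 10 were positive, where 55.4% of all tested genes were, with a median difference of 0.62. Esm1, a secreted proteoglycan of tip cells at the head of vessel sprouts, measured 16.3, 16.6, 7.21 and 2.64 TPM in the Cr1l tumours, against 2.92, 1.14 and 0.22 TPM in the Vec tumours. Cr1l 1 and Cr1l 2 were the highest, Cr1l 4 lay just under Vec 5, and the log2 difference was 2.17. Esm1 was thus lower in Cr1l 3 than in Cr1l 1 although the endothelial sum was higher there. Pdgfb, by which sprouts recruit pericytes, had a difference of 1.52 and the chemokine receptor Cxcr4 one of 1.49 (limma adjusted p = 0.281 and 0.273). The 20 signal transducers downstream of the VEGF receptors were evenly split, with 11 positive, 9 negative and a median of 0.06. The small GTPase gene Hras was lower in every Cr1l tumour (log2 difference -0.39, limma adjusted p = 0.251), while Cdc42 and Plcg1 differed by 0.42 and -0.27 with overlap.

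Among 12 other angiogenic factors, 6 were positive and 6 negative. Cxcl12, a chemokine of stromal cells, measured 18.2, 26.6, 224 and 152 TPM in the Cr1l tumours, against 25.8, 11.5 and 6.73 TPM in the Vec tumours, a log2 difference of 2.25 (limma adjusted p = 0.303). Pdgfc had a log2 difference of 1.88 (limma adjusted p = 0.298) and likewise stood high in Cr1l 3 and Cr1l 4 alone. These are the tumours with the highest fibroblast and macrophage sums, and the part of those cells in Cxcl12, Pdgfc, Vegfd, Nrp1 and Nrp2 was not tested. Pdgfa was lower in every Cr1l tumour, by -0.32 on the log2(TPM + 1) scale. Of 10 tested inhibitors of angiogenesis 8 were positive, where 55.4% of all tested genes were, with a median of 0.57. Vash1, an inhibitor made by endothelial cells, measured 5.15, 4.84, 11.6 and 2.87 TPM against 2.49, 1.26 and 1.34 TPM, higher in every Cr1l tumour, with a log2 difference of 1.29 (limma adjusted p = 0.240). The secreted inhibitors Thbs2 and Serpinf1 had differences of 1.05 and 1.23 with overlap. Against Vec 5 alone the log2 differences were smaller for Esm1 (1.32), Pdgfb (0.48), Cxcr4 (0.40), Cxcl12 (1.28), Nrp1 (0.65), Nrp2 (0.86), Thbs2 (0.30) and Serpinf1 (0.20).

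**Figure D4:**
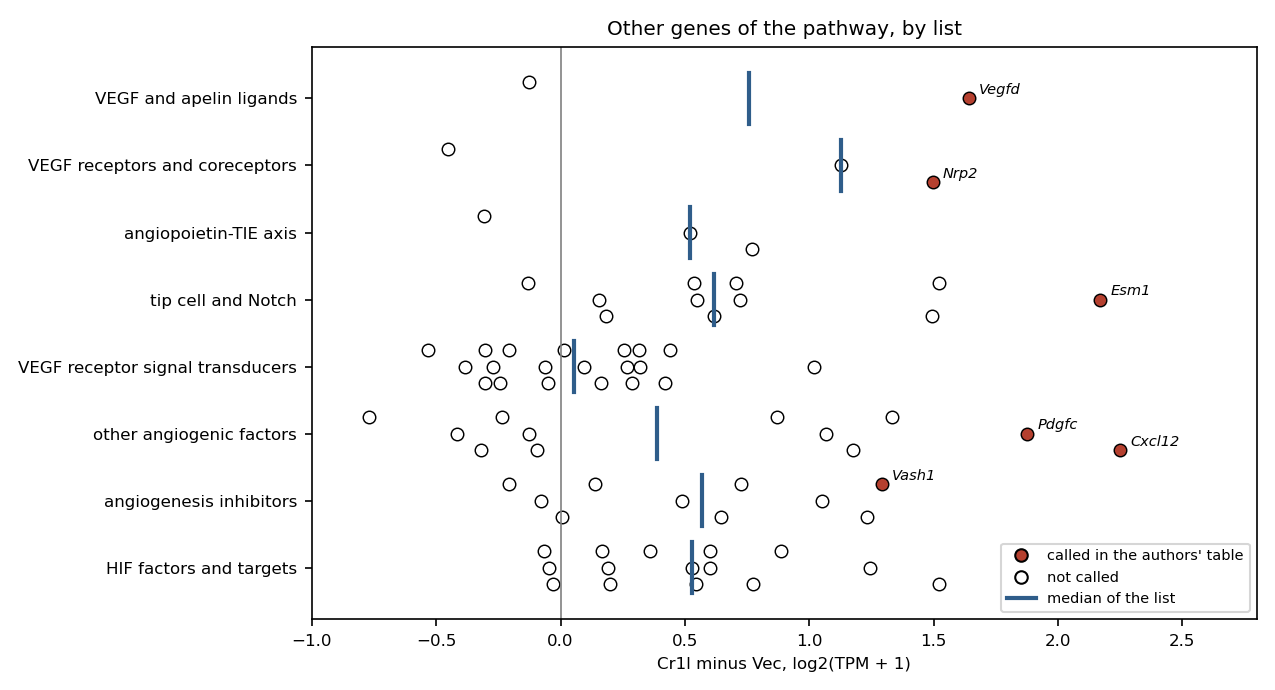
Difference in log2(TPM + 1), Cr1l minus Vec (x axis), of each of the 76 tested pathway genes by list (rows); filled points were called in the authors' deposited table and blue bars are list medians. The medians of the lists run from 0.06 for the signal transducers to 1.13 for the receptors and coreceptors.

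Of 15 HIF factors and targets, 12 were positive, where 55.4% of all tested genes were, with a median difference of 0.53. Limma called 0 of them at an adjusted p of 0.05. At an unadjusted p under 0.05, 5 passed, where 15.6% of all tested genes did. This list too was chosen with earlier results of these data known. Car9, a carbonic anhydrase strongly induced by HIF, measured 182, 259, 126 and 320 TPM in Cr1l 1 to Cr1l 4, against 56.1, 81.6 and 146 TPM in Vec 5 to Vec 7, a log2 difference of 1.24 (limma adjusted p = 0.244). Only Cr1l 3 fell within the Vec range. P4ha1, a collagen prolyl hydroxylase, and Ankrd37 were higher in every Cr1l tumour, with log2 differences of 0.54 and 0.89 (limma adjusted p = 0.257 and 0.288). The mean log2(TPM + 1) of the 15 genes was 6.66, 6.89, 6.67 and 7.22 in the Cr1l tumours, against 6.36, 6.26 and 6.47 in the Vec tumours, again without overlap. Cr1l 4 and then Cr1l 2 had the highest mean and also the highest Vegfa, and Cr1l 1 and Cr1l 3 had nearly the same mean. The Vec tumours did not keep this order, since Vec 5 had a higher mean than Vec 6 but a lower Vegfa. Because the groups sat apart on both measures, no correlation is given. Against the endothelial marker mean the Cr1l tumours showed no such order for Vegfa, since Cr1l 3 had the highest marker mean and the lowest Vegfa of its group. The part of low oxygen in the level of Vegfa was not tested.

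**Figure D5:**
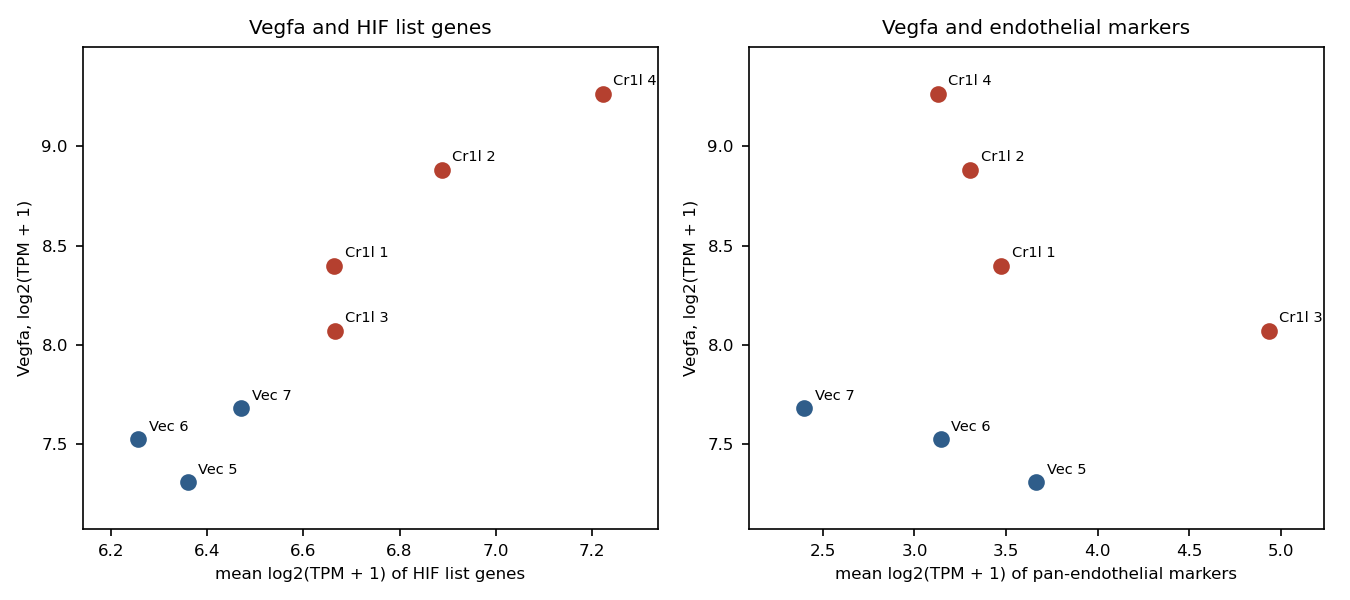
Vegfa in log2(TPM + 1) (y axes) against the mean log2(TPM + 1) of 15 HIF list genes (left) and of 18 pan-endothelial markers (right); each point is 1 tumour, red Cr1l and blue Vec. On the left the Cr1l tumours lie at 6.66 to 7.22 and the Vec tumours at 6.26 to 6.47, and on the right the groups overlap.

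The genes whose log2(TPM + 1) pattern over the 7 tumours was most like that of Apln, among 14953 ranked, were Rab32, Zfp953, Tmem126b, Ccdc50 and Zfp780b, with Pearson r from 0.989 to 0.991. None of these is an endothelial marker, and since Apln separated the groups, the ranking favours genes that did so too. Rab32, for example, had means of 57.2 and 41.4 TPM, a far smaller difference than that of Apln. The genes most like Pecam1 were Erg, Plvap, Mmrn2, Tie1 and Podxl, with r from 0.981 to 0.988. Erg, Plvap and Mmrn2 are among the 18 endothelial markers. These values describe 7 libraries of 2 groups and share those libraries.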

How the data were processed

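RNA was sequenced from 7 tumours, 4 Cr1l and 3 Vec, grouped by their labels. Libraries were made from poly-T selected RNA without strand information, per the labels' protocols, so antisense reads count with the gene. The authors used RSEM, DESeq2 and the mm39 build, per the submitters' processing notes; no version, annotation or read number is given in the sources used here. Values per gene were deposited as log2(TPM + 1); undone, they sum to 993520 to 996031 TPM per tumour. The authors' DESeq2 table has columns, per the file headers, for the mean signal (normalized count), the log2 fold change and its SE, and the p-value with its adjusted form. Its Ensembl identifiers were matched to symbols (27182 of 28369) with a GRCm38 name table. Its numerator is not named and was read as Cr1l from the sign of Cr1l.

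The 14954 of 28233 genes that averaged 1 TPM or more were fitted with limma 3.58.1 in R 4.3.3 on log2(TPM + 1), with group as the only term and a variance trend; p-values are two-sided, adjusted by Benjamini-Hochberg with a threshold of 0.05. This scale understates changes of low genes. P-values set the difference between the groups against the spread between these tumours, with each variance drawn toward the trend over genes. They do not separate Cr1l from any other difference between the lines. The script was tested on simulated data. Figures were drawn with matplotlib 3.10.9. The 10 genes, the lists and the markers were chosen with earlier results of these data known. Named are the 10 genes, Cr1l, up to 3 genes of each pathway list with the smallest limma p, the marker lists, and the 5 genes most like Apln and Pecam1. Alternatives were a pseudocount of 0.1 TPM, median-of-ratios scaling, no filter, sample weights, leaving out each tumour, leaving out Vec 6 and Vec 7 and, chosen after seeing the data, Cdh5 as the sole endothelial reference. Repertoire values were not used here.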

Additional observations from a re-analysis of the deposited data

Results flagged for a closer look

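In the Cr1l group 1 tumour, Cr1l 3, stood apart from the other 3 by the ratio of its gap to the group's range, set against Dixon's 95% critical value for 4 samples. The ratio was 0.957 for Aplnr, 0.889 for Kdr, 0.921 for Pecam1, 0.901 for Tie1 and 0.867 for Pdgfb in TPM. It was 0.846 for the summed mural cell markers, 0.965 for the summed keratinocyte markers and 0.915 for the summed skeletal muscle markers. Of 44 such groups examined, 8 passed, and they are not independent because all 8 are the same tumour. The critical value assumes normally distributed values and was applied to TPM without logs. The number that passed is therefore not set against chance. Relative to the endothelial marker mean, Kdr in Cr1l 3 was -0.53, beside -0.47 to -0.46 in the other 3.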

How the results depend on the processing

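With limma, 0 genes were called higher and 2 lower. Called higher were 4 with a pseudocount of 0.1 TPM, 4 with median-of-ratios scaling, 6 with sample weights, whose fit stopped before its convergence tolerance, 1 without Vec 6 and Vec 7, and 0 to 2 with 1 tumour left out. Called lower were 6 with median-of-ratios scaling, 0 with no filter, 8 with sample weights, and 0 to 6 with 1 tumour left out. Pathway genes called were 0 in all 12 alternatives. Without Vec 6 and Vec 7 the variance of the lone Vec tumour is taken from the Cr1l tumours. Vegfb, Tie1 and Ptprb turned sign: Vegfb (-0.25 to 0.0013 with 1 tumour left out) without Cr1l 3, Tie1 to -0.23 without Vec 6 and Vec 7, and Ptprb to -0.33 without Vec 6 and Vec 7 and to -0.025 without Vec 7. Log2 differences kept their sign in all 10 alternatives for Apln (1.78 to 2.71), Vegfa (0.95 to 1.35), Kdr (0.77 to 1.83), Aplnr (1.10 to 2.18), Tek (0.87 to 1.73), Pgf (0.15 to 0.77) and Pecam1 (0.03 to 1.80). Vegfc, Angpt2 and Flt1 did not (-0.38 to 0.29, -0.84 to 0.19 and -0.51 to 1.47). Relative to the endothelial markers Kdr differed by 0.62 (against Cdh5 alone) to 0.99, and Flt1 by -0.55 (without Vec 6 and Vec 7) to 0.53. The causes were not tested. No paired analysis was possible because tumour numbers do not repeat across the groups. Depth is unknown.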
